A study of Danio rerio with 28 samples.

Results

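Titin-rich cells were cells of zebrafish embryos at 24 hours post fertilization (hpf) that held at least 3 transcripts of ttna plus ttnb and no transcript of germnanos3, the table's name for the germ cell gene nanos3. They were 61 of 352 cells at 24 hpf and 61 of 188 germnanos3-zero cells, in a series of 1203 cells. The cells were chosen by their ttna, ttnb and germnanos3 values, and the other 127 germnanos3-zero cells served as the comparison. For that reason the values of these 3 genes are given as descriptions, without a test.

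Titin is the giant spring-like protein that spans the sarcomere of striated muscle from the Z-disc to the M-band, and zebrafish have the neighbouring copies ttna and ttnb. It works with the myosin thick filament, the actin, troponin and tropomyosin thin filament, and the calcium pump that refills the sarcoplasmic reticulum. In the zebrafish embryo at this stage striated muscle is found in the somites and the heart. Reads of such similar copies can be shared, so the split between ttna and ttnb is uncertain.

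Cells labelled as germ cells were sorted singly from embryos of wild-type mothers and of maternal-zygotic (mz) tdrd6a-/- mothers, and their RNA was read by CEL-seq, a method that counts transcripts at their 3' end. At 24 hpf there were 5 plates labelled wildtype, with 196 cells, and 3 plates labelled Tdrd6a-/-, with 156 cells. The transgene named beside the wild-type mothers is kop::egfp-f-nos1-3'UTR, and the design text does not state whether the mutant mothers carried it too. This reporter is used to mark germ cells. A further plate, labelled wildtype, held 8 hpf wells and 24 hpf wells, and its 40 cells at 24 hpf were used as an addition and not in the main tests. At 8 hpf, 48 cells of mutant plate 1 are described as het (heterozygous), and they entered only a count across stages. The plate was the replicate, and nothing in the labels says that plates came from separate clutches. The p-values therefore measure the spread between plates, which may be technical. In the gene tests this spread was pooled across genes, so a gene's p-value does not rest on its own spread alone. In the comparison of titin-rich with other cells the pooling was full for the median gene. The p-value of such a gene rests on the shared spread, and its own spread between plates had no separate weight. The mutated gene tdrd6a was not analysed here, so the genotype labels were not checked against it.

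The deposited values, less 0.1, are called transcripts here; no file or label says whether they count molecules or reads. Cells at 24 hpf held 266 to 855 listed transcripts, with a median of 538.5. Titin-rich cells held a median of 550 and the other germnanos3-zero cells a median of 597, so the titin-rich cells were not the deeper cells.

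Titin-rich cells were concentrated in a few plates. Wild-type plate 1 held 24 among 34 germnanos3-zero cells (70.6%, exact 95% interval 52.5% to 84.9%). Mutant plate 1 held 16 among 30 (53.3%, 34.3% to 71.7%) and mutant plate 2 held 18 among 48 (37.5%, 24.0% to 52.6%). These 3 plates gave 58 of the 61 cells. Mutant plate 3 held 2 among 20 cells (10%) and wild-type plate 3 held 1 among 11. Wild-type plates 2, 4 and 5 held none among 6, 26 and 13 cells, which allows shares of up to 45.9%, 13.2% and 24.7% by the same exact interval. These intervals cover counting error only.

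**Figure D1:**
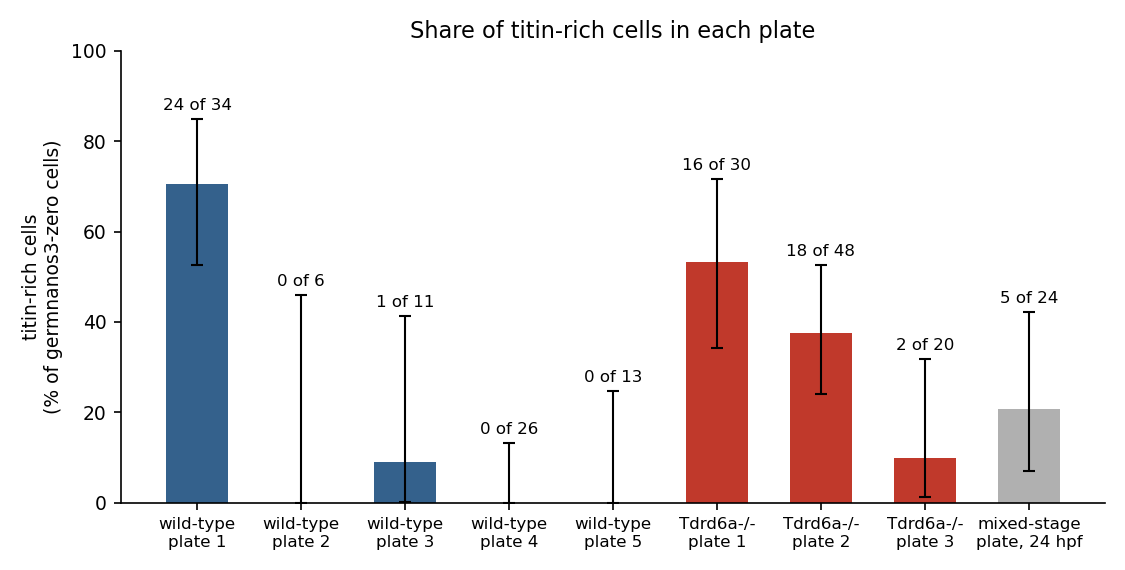
Titin-rich cells as a percent of the germnanos3-zero cells of each plate at 24 hpf, with exact 95% binomial intervals that cover counting error only; the numbers of cells stand above the bars. Wild-type plate 1 and mutant plates 1 and 2 lie between 37.5% and 70.6%, and the other 5 plates of the 2 genotypes lie at 10% or below.

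The mean share was 15.9% ± 30.8 (SD, n = 5) in wild-type plates and 33.6% ± 21.9 (SD, n = 3) in mutant plates. The difference of 17.7 percentage points was within the spread between plates (exact two-sided permutation test, p = 0.393, where 0.0179 is the smallest p that 5 and 3 plates allow). Wild-type plate 1 decided this value. Without it the difference was 31.3 points (exact permutation test, p = 0.0286), and no smaller p can come from 4 and 3 plates. With a threshold of 6 titin transcripts the difference was -0.54 points, and with every cell thinned to 300 transcripts it was 3.8 points.

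Cells of this kind were counted at the other stages too. No cell of 469 at 3.5 hpf and none of 76 at 2 weeks met the rule. Among 261 cells at 8 hpf 1 did, and it was among the 48 cells of mutant plate 1 at 8 hpf that are described as het. In the 24 hpf wells of the mixed-stage plate 5 of 24 germnanos3-zero cells did. Of the 164 cells with germnanos3 transcripts at 24 hpf 15 had 3 or more titin transcripts. No test was made of these descriptions, since the rule used both genes.

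Within the 61 cells the titin sum ran from 3 to 19 with a median of 4. The mean was 3.56 transcripts of ttna and 2.16 of ttnb, and 47 cells held both copies, 12 only ttna and 2 only ttnb. Plate by plate, the titin-rich cells of wild-type plate 1 held a mean of 5.96 titin transcripts, those of mutant plate 1 6.25 and those of mutant plate 2 4.72. The other germnanos3-zero cells of these plates held 0.70, 0.79 and 1.23. Just inside the threshold stood 22 cells with a sum of 3, and just outside it 21 cells with a sum of 2. After thinning to 300 transcripts 30 of the 61 cells still held 3 or more.

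The cells were sorted as germ cells, but most of the titin-rich cells lacked germ cell transcripts. Over 7 listed germ cell markers other than germnanos3, among them germvasa, titin-rich cells held a mean of 0.31 transcripts and 9 of 61 cells had any. The other germnanos3-zero cells held 0.42, with 26 of 127 cells positive, and germnanos3-positive cells held 2.96, with 130 of 164 positive. In the 3 plates with most titin-rich cells the means were 0.19 to 0.33 in titin-rich cells and 2.17 to 2.43 in germnanos3-positive cells, without overlap. Against the other germnanos3-zero cells the order differed between these plates. Titin-rich cells held 0.33 against 0.70 in wild-type plate 1, 0.19 against 0 in mutant plate 1 and 0.33 against 0.07 in mutant plate 2.

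A muscle identity of the titin-rich cells was borne out only in part by muscle markers. Of 25 skeletal muscle markers 10 were listed in the table, and none of 6 cardiac markers was, so heart muscle could not be told from skeletal muscle. The 10 markers summed to 4.71 transcripts per titin-rich cell in wild-type plate 1, 3.94 in mutant plate 1 and 2.44 in mutant plate 2. In the other germnanos3-zero cells the sums were 1.70, 0.79 and 4.1, so the titin-rich cells were higher in 2 of 3 plates and the ranges overlapped. This count turned on single cells: without the highest cell of each class the means were 2.13, 3.2 and 2.18 against 1.44, 0.54 and 2.1, higher in each plate. The median titin-rich cell held 2 marker transcripts, 11 of 61 held none, 20 held 3 or more of the 10 markers and 7 held 5 or more. At equal depth of 300 transcripts 12.5%, 18.75% and 22.2% of titin-rich cells in these 3 plates held 3 or more markers. Among their other cells the shares were 0%, 0% and 13.8%. Over all 8 plates they were 16.4% and 3.25%, but 58 of the 61 titin-rich cells and only 54 of the other cells came from these 3 plates. The cells are therefore called titin-rich here and not muscle cells. Few cells held a full muscle program, such as a cell of wild-type plate 1 with all 10 markers detected; the highest marker sum there was 64. Among the other cells of mutant plate 2 a cell also reached 62.

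Whether titin-rich cells differed from their neighbours was tested gene by gene within the 3 plates that held at least 5 cells of both classes (58 titin-rich and 54 other cells). The plate means of both classes were compared with limma on log2(mean + 0.2), with the plate as a block and Benjamini-Hochberg adjustment over 480 genes. Of these genes 18 were higher in titin-rich cells (3.75%) and 25 were lower (5.21%), or 8.96% in all, at an adjusted p below 0.05. The median gene was shifted by -0.27 on the log2 scale. The higher genes were led by mitochondrially encoded genes, the lipid carrier gene apoc1l, the hatching enzyme gene he1a and the muscle calcium pump gene atp2a1, and the lower genes by pfn1, id1 and genes of ribosomal proteins. All folds below are on the log2(mean + 0.2) scale, which understates changes of low genes.

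The split of calls moved with the scaling. It was 25 higher and 10 lower with each cell rescaled to the same total, 28 and 5 with rescaling on non-mitochondrial transcripts, and 19 and 8 with limma voom on summed transcripts. Rescaling on non-mitochondrial transcripts moved the median gene from -0.27 to -0.09. Without wild-type plate 1 no gene of 393 was called, with 49 at an unadjusted p below 0.05. That fit has 1 residual degree of freedom, against 2 with all 3 plates. The folds kept their direction in all 15 of the higher and all 22 of the lower genes that could be fitted. This direction was largely fixed beforehand, since all 18 higher and 23 of the 25 lower genes already had it in all 3 plates. Without mutant plate 1 there were 7 higher and 16 lower genes, and without mutant plate 2 there were 9 and 2. Without the plate block, 1 gene was higher and 1 lower.

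**Figure D2:**
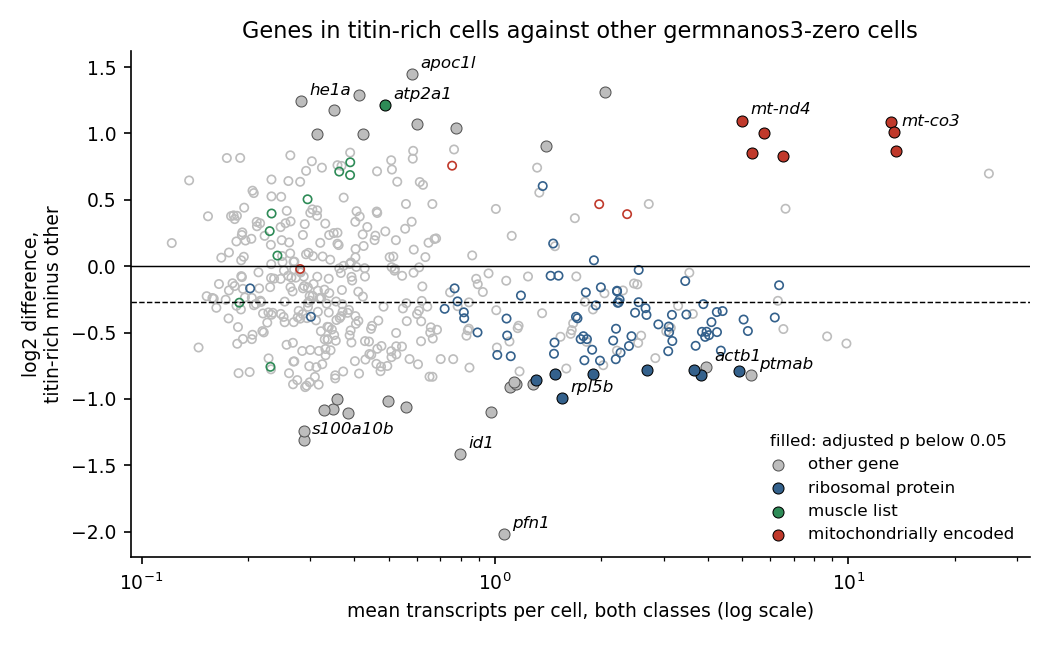
Log2 difference between titin-rich and other germnanos3-zero cells against the mean level of each of 480 genes in transcripts per cell on a log axis; filled points passed an adjusted p of 0.05 in limma, and the dashed line is the median gene at -0.27. Mitochondrially encoded genes lie above 0 except for 1, most ribosomal protein genes lie below it, and pfn1 is the lowest gene.

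Mitochondrially encoded genes, which code for subunits of the respiratory chain and the ATP synthase, made up 7 of the 18 higher genes. Of the 11 listed and tested genes 7 rose and none fell, with a median of 0.85 against -0.27 over all genes. The complex I gene mt-nd4 stood at 7.46, 5.56 and 7.33 transcripts per titin-rich cell in wild-type plate 1 and mutant plates 1 and 2, and at 3.2, 1.93 and 4.50 per other cell. All titin-rich means lay above all other means, and the log2 difference was 1.1 ± 0.25 (SE, limma adjusted p = 0.00182). The cytochrome oxidase gene mt-co2 had 18.6, 17.7 and 17.1 transcripts against 7.70, 6.14 and 11.9, a log2 difference of 1.09 ± 0.26 (limma adjusted p = 0.00255). Its partner mt-co3 had 22.9, 14.9 and 16.3 against 9.2, 7.07 and 10.1. All 7 calls ended without mutant plate 1, with adjusted p from 0.0866 to 0.307, and without wild-type plate 1, with adjusted p from 0.315 to 0.340, while mt-nd4 kept log2 differences of 0.93 and 1.06. The complex I genes mt-nd2 and mt-nd1, the ATP synthase gene mt-atp6 and the cytochrome b gene mt-cyb rose by log2 1.0, 0.85, 0.87 and 0.83. Among the 4 genes that did not pass, mt-atp8 was the only one with a negative value (-0.02).

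Of muscle genes, 10 were high enough to test, and 1 of these passed, beside 18 of all 480 genes called higher (3.75%). It was atp2a1, which codes for the calcium pump of fast muscle. It had 0.83, 0.81 and 0.56 transcripts per titin-rich cell and 0.30, 0 and 0.43 per other cell, in the same order of plates. The groups did not overlap, and the log2 difference was 1.21 ± 0.34 (SE, limma adjusted p = 0.0135). Over all 8 plates it was detected in 30 of 61 titin-rich cells and in 14 of 127 other cells, many of them from plates outside the test. In the 3 tested plates it was detected in 11 of 24, 7 of 16 and 10 of 18 titin-rich cells. Among their other cells the counts were 3 of 10, 0 of 14 and 6 of 30. In mutant plate 2 the other cells' mean rested on 1 cell with 8 transcripts and was 0.17 without it. The call ended, among others, with voom (adjusted p = 0.0772), without mutant plate 1 (0.256) and against cells with no titin (0.113). Over all alternatives adjusted p ran from 0.00364 to 0.369, with a log2 difference above 0 in each.

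The other 9 muscle genes did not pass the test. Those of the thin filament were the skeletal actins acta1a (log2 0.78 ± 0.34) and actc1b (0.69 ± 0.34), the troponins tnnt2c (0.40 ± 0.34) and tnnc2 (-0.28 ± 0.33), and the tropomyosins tpma (0.50 ± 0.36) and tpm3 (-0.76 ± 0.34). The myosin light chain gene mylpfa stood at 0.71 ± 0.34, and the muscle creatine kinases ckma and ckmb at 0.26 ± 0.34 and 0.08 ± 0.35. Thus 8 of the 10 muscle genes were positive, against 147 of all 480 genes. The mean of the 3 plate means in titin-rich cells was 0.54 transcripts or fewer for each of these 9. The slow myosin gene smyhc1 was too low to test, at 0.71, 0.19 and 0.11 transcripts against 0.40, 0 and 0.07.

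The apolipoprotein gene apoc1l had the largest positive difference of a named gene. Its product is carried on lipoproteins. Titin-rich cells held 1.08, 0.75 and 0.89 transcripts in wild-type plate 1 and mutant plates 1 and 2, and other cells 0.10, 0.07 and 0.60. The groups did not overlap, and the log2 difference was 1.45 ± 0.34 (SE, limma adjusted p = 0.00182). Over all 8 plates it was detected in 32 of 61 titin-rich cells and 16 of 127 others, many of them from plates outside the test. In the 3 tested plates it was detected in 15 of 24, 7 of 16 and 10 of 18 titin-rich cells. Among their other cells the counts were 1 of 10, 1 of 14 and 12 of 30. With voom the adjusted p was 0.0597 and with the mixed-stage plate 0.0652, and over all alternatives it ran from 0.000329 to 0.347. In titin-rich cells of that plate the level was 0.20 and in its other cells 0.32, the opposite direction.

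The choriolytic protease gene he1a marks the hatching gland, whose enzyme digests the egg envelope. It had 0.54, 0.06 and 0.89 transcripts per titin-rich cell against 0, 0 and 0.20 per other cell, so the groups overlapped, and the log2 difference was 1.24 ± 0.34 (SE, limma adjusted p = 0.0102). The 2 listed hatching gland markers, he1a and he1b, summed to 0.06 to 1.06 transcripts in titin-rich cells and 0 to 0.30 in other cells, higher in 3 of 3 plates. In mutant plate 1 this rested on 1 he1a transcript in 1 of 16 titin-rich cells, and he1b was 0 there in both classes. Neither was at 0 over the titin-rich cells. No titin-rich cell held more than 4 he1a transcripts, while 1 other cell, in wild-type plate 3 outside the test, held 48. Over all 8 plates the mean was therefore 0.49 in titin-rich and 0.44 in other cells. The part of hatching gland RNA in the other differences was not tested.

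The remaining named genes that rose were acin1a (log2 0.90), which codes for a nuclear protein of splicing and chromatin condensation, the tripartite motif gene TRIM14 (0.99) and the prohormone processing gene cpe (1.0). These calls ended in many alternatives: acin1a was called in 8 of 17, TRIM14 in 6 of 17 and cpe in 7 of 15. A further 5 of the higher genes carried clone names. Each of the 18 genes was higher in all 3 plates, and 17 were so after the highest cell of each class in each plate was left out. The exception was he1a, which was then at 0 in both classes of mutant plate 1.

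**Figure D3:**
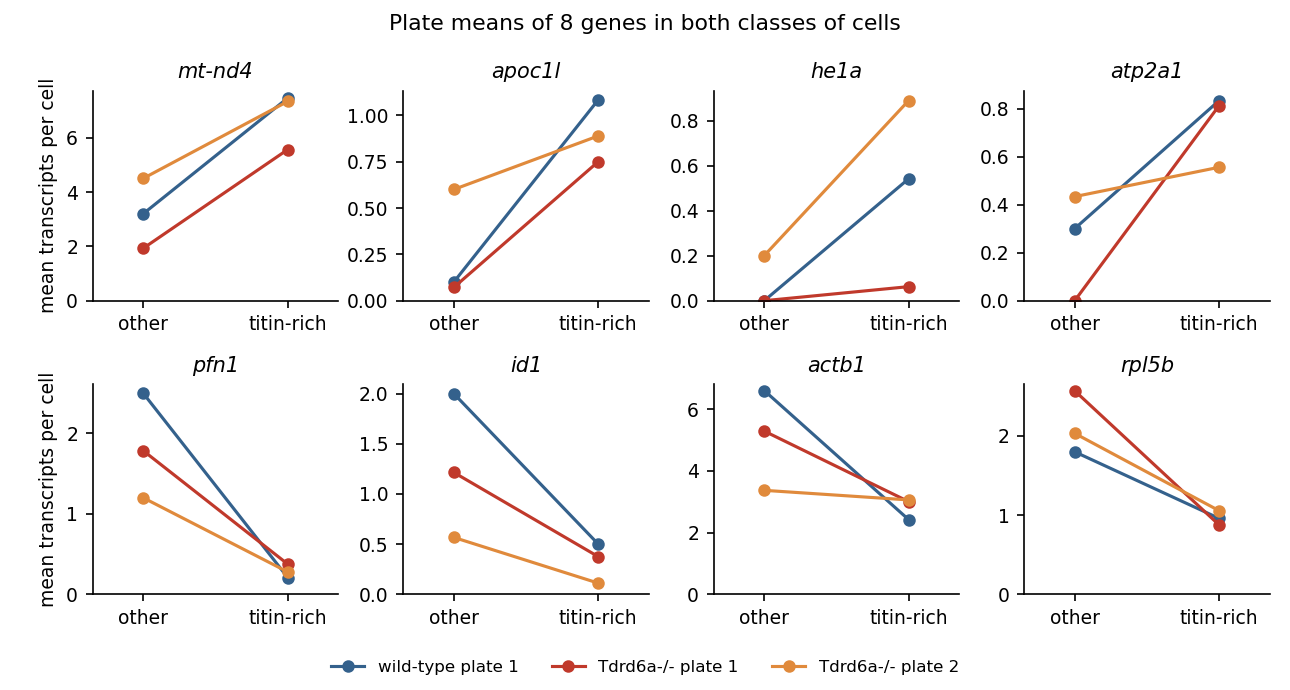
Mean transcripts per cell of 8 genes in other and titin-rich germnanos3-zero cells, with a line for each of 3 plates and axes that start at 0. The upper genes rise and the lower genes fall in each plate, and the other cells' level of pfn1 differs between plates from 1.2 to 2.5.

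The gene that fell most was pfn1, which codes for profilin, an actin monomer binding protein. Titin-rich cells held 0.21, 0.38 and 0.28 transcripts in wild-type plate 1 and mutant plates 1 and 2, and other cells held 2.5, 1.79 and 1.2. The groups did not overlap, and the log2 difference was -2.02 ± 0.30 (SE, limma adjusted p = 5.99e-09). The other cells' means rested in large part on few cells. The highest cell of each plate held 16, 10 and 18 pfn1 transcripts, with a titin sum of 1 in each. These cells also held 18, 7 and 16 transcripts of the keratin gene krt4, and 38, 16 and 14 of the actin gene actb1. Without the highest cell of each class the means were 0.17, 0.27 and 0.18 against 1.0, 1.15 and 0.62. Against other cells with a titin sum of 0 the call ended, with a log2 difference of -0.12 (adjusted p = 0.900). Without wild-type plate 1 the log2 difference was -1.67 (adjusted p = 0.232), and across alternatives adjusted p ran from 9.15e-09 to 0.900.

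The same comparison against cells with a titin sum of 0 ended the calls of 2 further actin genes. These were actb1, the cytoplasmic beta actin (log2 -0.76, and 0.06 against cells with no titin), and the cofilin gene cfl1l (-1.02 and -0.07), which codes for an actin severing factor. The Arp2/3 subunit gene arpc3 (-1.24 ± 0.35) and the annexin partner s100a10b (-1.31 ± 0.35) also fell. In wild-type plate 1 s100a10b was seen in 1 other cell with 8 transcripts, and without each class's highest cell the direction there turned. The gene s100a10b reached the filter mean of 0.2 transcripts only in the other cells, so it could enter the test only as a lower gene. Epidermal markers are given beside these genes. The 8 listed of 11 summed to 5.71 to 7.78 transcripts in titin-rich cells and 8.27 to 9.43 in other cells, lower in 3 of 3 plates, and none was at 0. These sums rested on few cells: the highest other cell held 51, 64 and 103 epidermal transcripts in wild-type plate 1 and mutant plates 1 and 2, and without the highest cell of each class the means were 3.35, 5.47 and 6.71 in titin-rich and 3.67, 5.23 and 5 in other cells. By cell the order was the other way, with 3 or more epidermal transcripts in 43 of 58 titin-rich and 29 of 54 other cells of these plates. Of 10 epidermal genes tested 1 fell, which was cfl1l, with a median of -0.38 against -0.27 over all genes. The part of epidermal RNA in the pfn1 and actin differences was not tested.

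By contrast, id1 did not depend on titin in the comparison cells. It codes for an inhibitor of basic helix-loop-helix factors that responds to BMP signals. Titin-rich cells held 0.50, 0.38 and 0.11 transcripts in the 3 plates and other cells 2.00, 1.21 and 0.57, without overlap. The log2 difference was -1.42 ± 0.32 (SE, limma adjusted p = 0.00164), and it was -1.69 against cells with a titin sum of 0 (adjusted p = 0.0172). It was called in 15 of 17 alternatives, where adjusted p ran from 0.000518 to 0.315.

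Ribosomal protein genes code for the structural proteins of the ribosome. Of 78 tested 8 fell and none rose, with a median of -0.43 against -0.27 over all genes. The share called lower was 5.21% over all genes, and 75 of the 78 were negative beside 333 of all 480. The called genes rpl10a and rps28 were not lower in mutant plate 1, at 6.5 and 3.31 transcripts per titin-rich cell against 6.43 and 2.71. Of all 25 genes called lower, 23 were lower in all 3 plates, and 22 were so without the highest cell of each class in each plate. The 60S gene rpl5b had 0.96, 0.88 and 1.06 transcripts per titin-rich cell and 1.8, 2.57 and 2.03 per other cell, a log2 difference of -1.0 ± 0.28 (SE, limma adjusted p = 0.0135). The ribosomal share of all listed transcripts was 26.1%, 34% and 25.7% in titin-rich cells and 39.7%, 39.4% and 28.8% in other cells, lower in each plate. That total includes mitochondrial transcripts, so a higher mitochondrial share lowers the ribosomal share by arithmetic. With rescaling on non-mitochondrial transcripts the median was -0.18 and 1 gene rose and 1 fell, so most of these calls depended on the scaling.

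In the cell cycle list and the chromatin and RNA list few genes fell. Other lower genes of chromatin and RNA lay outside that list. Of 8 cell cycle genes 1 fell, the ribonucleotide reductase gene rrm2 (log2 -1.08), and all 8 were negative with a median of -0.46, beside 5.21% lower and 333 of 480 negative over all genes. The rrm2 call ended with rescaling to the same total (adjusted p = 0.0515), with rescaling on non-mitochondrial transcripts (0.0831), with voom (0.0835) and with no filter (0.0638). Of 17 chromatin and RNA genes 2 fell, with a median of -0.20; with either rescaling none fell and 1 rose, and with voom 1 rose and 1 fell. The lower genes included the linker histone gene h1f0 (-1.11), the SWI/SNF subunit smarce1 (-1.07), the SUMO gene sumo3a (-1.06), the RNA binding gene hnrnpab (-0.91), the nuclear protein gene ptmab (-0.82) and the endoplasmic reticulum isomerase ppib (-1.10). Of these 6 genes only ppib was called with both rescalings, with voom and with no filter. The genes h1f0 and smarce1 reached the filter mean of 0.2 transcripts only in the other cells. They could therefore enter the test only as lower genes, so their direction was set by the filter. None of 9 neural, 7 notochord and connective tissue, or 7 stress and p53 genes passed, and their medians were 0.03, 0.06 and -0.26. Their genes of smallest p were marcksl1b (-0.81), col2a1a (-0.72) and ccng1 (-0.67). The 3 erythroid markers listed summed to 0.13 to 0.50 transcripts in titin-rich cells and 0 to 0.79 in other cells.

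The mitochondrial share of each cell was compared as a single value, with ttna and ttnb left out of the total. In wild-type plate 1 it averaged 19.6% over 24 titin-rich cells, from 5.19% to 38.3%, and 7.60% over 10 other cells, from 2.35% to 15.7%. Mutant plate 1 had 14.9% against 5.47%, and mutant plate 2 had 16.4% against 11%. Titin-rich cells were higher in each plate, and all 3 titin-rich means lay above all 3 other means, though single cells overlapped.

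Over plates the share was 17% ± 2.38 (SD, n = 3) in titin-rich and 8.03% ± 2.79 (SD, n = 3) in other cells, a difference of 8.95 percentage points. The exact two-sided paired permutation test over plates gave p = 0.25, the smallest that 3 plates allow. In the mixed-stage plate, not used above, the share was 9.21% in 5 titin-rich cells and 4.83% in 19 others, and 4 plates together gave an exact p of 0.125, again the smallest possible. Titin-rich cells held fewer non-mitochondrial transcripts as well: a mean of 454 against 526 over all 8 plates, beside 88.8 against 44.3 mitochondrial transcripts.

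**Figure D4:**
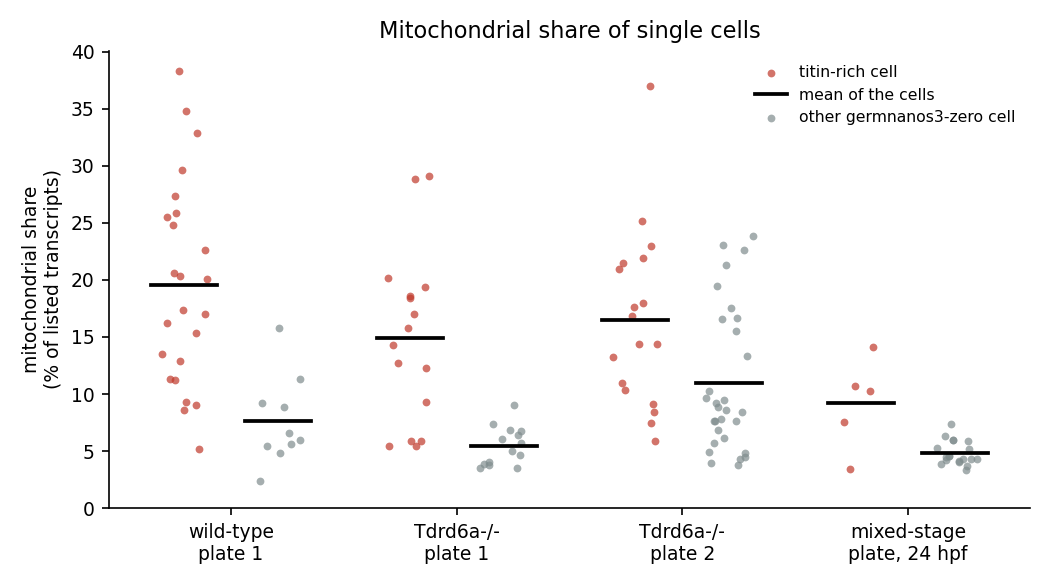
Mitochondrial share of the listed transcripts, in percent, of each titin-rich and each other germnanos3-zero cell in 3 plates and in the 24 hpf wells of the mixed-stage plate; each point is a cell and each line the mean of the cells. The titin-rich means lie between 9.21% and 19.6% and each is above the mean of the other cells of its plate, with overlap between single cells.

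The share was also described along the titin sum, without a test. It averaged 6.54% in 65 cells with no titin transcript, 7.47% in 41 cells with 1 and 14.4% in 21 cells with 2, of which the highest reached 53%. Of the cells with a sum of 2, 13 in mutant plate 2 averaged 15.1%. Another 4, in plates outside the gene test, averaged 19.2%, the cell at 53% among them. The 2 cells in wild-type plate 1 averaged 7.23% and the 2 in mutant plate 1 averaged 7.96%. At a sum of 3 the means in wild-type plate 1 and mutant plates 1 and 2 were 14.7%, 15.8% and 20.3%, over 7 cells each. Pooled over plates, titin-rich cells averaged 16.5% at a sum of 3 and 14.4% at 4 to 5. They averaged 21.4% at 6 to 8 and 16.8% at 9 or more. These pooled values hid a difference between plates. At a sum of 4 or more the mean was 21.6% over 17 cells of wild-type plate 1. It was 14.2% over 9 cells of mutant plate 1 and 14.01% over 11 cells of mutant plate 2. The last value lay below the 15.1% of that plate's cells with a sum of 2. Within the 61 titin-rich cells the Spearman rank correlation between titin sum and mitochondrial share was 0.10. By plate it was 0.30 in wild-type plate 1, 0.04 in mutant plate 1 and -0.29 in mutant plate 2. Between mitochondrial share and transcripts per cell it was -0.43 over the 61 cells, and -0.40, -0.85 and 0.12 in these plates. These values are descriptions of cells that share plates and depth. Titin-rich cells with no muscle marker averaged 11.4% ± 3.76 (SD over 11 cells). Those with 1 or 2 markers averaged 17.5% ± 9.45 (SD over 30 cells), and those with 3 or more 19.1% ± 7.12 (SD over 20 cells). The 14 other cells with 3 or more muscle markers averaged 10.2%, and 8 of them came from mutant plate 2. These cells were pooled over plates, so the SDs do not measure the spread between plates.

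**Figure D5:**
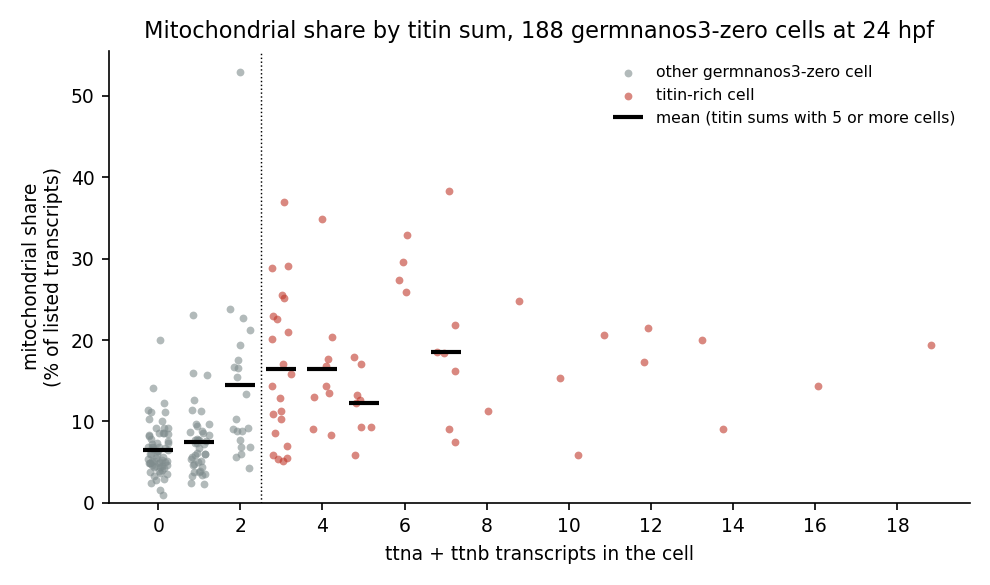
Mitochondrial share of the listed transcripts, in percent, against the sum of ttna and ttnb transcripts in 188 germnanos3-zero cells at 24 hpf; points are cells, spread sideways for display, and the dotted line is the threshold. The mean is 6.54% at a sum of 0 and 16.5% at a sum of 3; the 14.4% at a sum of 2 includes 13 cells of mutant plate 2, with a mean of 15.1%, and a cell at 53%.

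The same relation was looked for in the germnanos3-positive cells, which the rule left out; this was chosen after the result above was seen. Over 7 plates the share was 13.4% ± 5.15 (SD, n = 7) in the 15 cells with 3 or more titin transcripts and 8.03% ± 3.27 (SD, n = 7) in the rest. The share was higher in 6 of 7 plates, by 5.36 points on average (exact two-sided paired permutation test, p = 0.0469), and mutant plate 2 had the opposite direction. Each plate gave only 1 to 4 cells of the first kind, and leaving out single plates moved the difference between 3.86 and 6.59 points. The exact permutation p ran from 0.0312 without mutant plate 2 to 0.0938, so the call ended without any plate other than that one. The 24 hpf wells of the mixed-stage plate were not in this test and also had the opposite direction. There the share was 4.71% in 2 germnanos3-positive cells with 3 or more titin transcripts and 6.66% in the other 14.

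Titin-rich cells of the 2 genotypes were compared in the plates with at least 5 such cells, which were wild-type plate 1 and mutant plates 1 and 2. No gene of 262 passed (0% called in limma), with 5 at an unadjusted p below 0.05, and voom called none. The gene of smallest p was mt-co3, at 22.9 transcripts in wild-type plate 1 and 14.9 and 16.3 in the mutant plates (limma adjusted p = 0.364). Among muscle genes acta1a came first, at 1.04 transcripts against 0.31 and 0.28 (limma adjusted p = 0.682). The mitochondrial share differed by -3.9 points, mutant minus wild type (exact permutation p = 0.333, the smallest that 1 and 2 plates allow). Whether the difference between titin-rich and other cells changed with genotype was tested as well: none of 480 genes passed (0%), with 41 at an unadjusted p below 0.05, and voom called none. With 1 wild-type plate the genotype and that plate cannot be told apart.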

How the data were processed

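Single cells sorted into plates were read by CEL-seq, per the labels' protocols. The submitters' processing notes list BWA and Zv9, with no version or setting. How reads were counted and cells selected is not given in the sources used here. Deposited was 1 table of 1017 genes and 1203 cells in a unit treated as signal: each value is a whole number plus 0.1 (tolerance 1e-06), with no normalization stated. All 28 libraries use the same 96 well barcodes, and no 2 cell columns were identical.

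The members and gene lists were chosen with earlier results of these data known. The 0.1 was subtracted and plate means were taken for each class. A gene was tested if 3 or more plate-by-class means reached 0.2, with limma 3.58.1 (trend, robust) in R 4.3.3. The fit was also run on simulated cells with the same class difference in each plate. Spread of that difference between plates was not simulated. The plate was the block, since both classes came from the same plates; deviations of the classes correlated within plates (r = 0.22, 0.48 and 0.41). The fit had 2 residual degrees of freedom for each gene, and for the median gene limma pooled the spread fully across genes. Single values used exact permutation tests over plates (Python 3.11.15). No doublet caller was run. Named genes were every tested muscle gene, the 12 largest called differences each way and the gene of smallest p of each other list; genes with clone names were only counted. The gene actb1 was named after its values were seen. Alternatives covered pseudocount, filter, scaling, voom, thresholds, cell minimum, block and left-out plates; those with the mixed-stage plate, with plates of at least 1 cell, with rescaling on non-mitochondrial transcripts and with plate numbers as a block for the share were chosen after seeing the data.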

Additional observations from a re-analysis of the deposited data

Results flagged for a closer look

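Among the 5 wild-type plates at 24 hpf, plate 1 stood far from the others in the share of titin-rich cells, at 70.6% of germnanos3-zero cells against 9.09% or less in the other 4. Of 3 quantities examined this way in these plates it was the only one that stood apart; chance marks about 1 in 20 such groups. In the 24 hpf wells of the mixed-stage plate, which entered no main test, the 10 skeletal muscle markers summed to 18.6 transcripts per titin-rich cell against 4.05 per other cell. The 5 cells held 13, 5, 2, 5 and 68 marker transcripts, so 1 cell gave most of the mean; this cell had all 10 markers and 22 transcripts of the slow myosin gene smyhc1.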

How the results depend on the processing

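The count of 43 genes that differed between titin-rich and other cells moved to 22 with no filter on low genes, 27 with voom, 6 with a titin sum of 6 or more, 3 with all germ cell markers at 0, and 66 with plates of at least 1 cell, weighted by cells. Leaving out single plates of the 3 tested gave 0 to 23 calls. Both classes came from the same plates; with no replicate block 2 genes were called. The difference in the share of titin-rich cells between genotypes was -0.54 points with a titin sum of 6 or more. It was 7.81 to 31.3 points with single plates left out, 31.3 being the value without wild-type plate 1. With numbers 1 to 3 as a replicate block it was 7.05 points (exact permutation p = 0.75). No label says that plates of the same number belong together, so this block is arbitrary. It also leaves out wild-type plates 4 and 5. Between genotypes 1 gene was called in titin-rich cells with a titin sum of 2 or more and 2 with plates of at least 1 cell; the change with genotype had 2 calls after rescaling without mitochondrial genes. The cause of these moves was not tested. No paired analysis was possible for genes of titin-rich cells between genotypes because no label pairs the plates. In the gene comparisons between genotypes no plate could be left out, since no residual degree of freedom or no wild-type plate would remain. For single genes 389 values kept direction and call, 169 lost the call, 5 gained it and 4 reversed: ckmb was -0.055 with plates weighted by cells, -0.081 with plates of at least 1 cell, and -0.077 to 0.51 with single plates left out, and tnnc2 was 0.40 against other cells with no titin. Genes under the filter were not tested, and 3 plates limit the precision.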

Other observations

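The mixed-stage plate gave a separate look at the genes that differed. Of the 18 genes higher in titin-rich cells 14 were also higher in its 5 titin-rich cells than in its 19 other germnanos3-zero cells (77.8%, against 53.7% of all 147 genes with a positive difference). Among these 14 were all 7 called mitochondrially encoded genes, which also enter the mitochondrial share given above and are not separate from it. Of the 25 lower genes 20 were lower (80%, against 74.8% of all 333 genes with a negative difference). The nuclear protein gene ptmab had 2.4 against 7.95 transcripts there and atp2a1 had 2.60 against 0.79. Little difference was seen there for id1 (2 against 2.11), mt-nd4 (3.8 against 3.47) and mt-nd1 (2.2 against 2). Among the named lower genes cfl1l (1.4 against 0.53), s100a10b (1 against 0.42), ppib (1.4 against 1.16), rpl5b (2 against 1.89) and h1f0 (0.6 against 0.58) lay the other way. Among the named higher genes acin1a (1 against 1.21) and apoc1l (0.2 against 0.32) did so. In germnanos3-positive cells, compared by titin sum, 16 of the 18 higher and 12 of the 25 lower genes had the same direction, beside 101 of all 147 positive and 189 of all 333 negative genes.

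In mutant plate 1, 15 of the 16 titin-rich cells carried one of the first 48 barcodes, against 8 of 14 other cells. The counts were 16 of 24 against 6 of 10 in wild-type plate 1 and 8 of 18 against 13 of 30 in mutant plate 2.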
